A study of Capra hircus with 4 samples.

Results

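The insulin-like growth factor (IGF) genes described here are 10 rows of a table of 20326 genes, chosen by symbol. They comprise the ligands IGF1 and IGF2, the receptors IGF1R and IGF2R, and the 6 binding proteins IGFBP2, IGFBP3, IGFBP4, IGFBP5, IGFBP6 and IGFBP7. All 10 symbols were found. Expression was measured by RNA sequencing of secondary hair follicle stem cells, taken from the dorsal skin of cashmere goats (Capra hircus) and then cultured. Early anagen cells were collected in April and mid anagen cells in October, with 1 female and 1 male library in each phase. The labels give no breed, age or treatment for any group, and do not say how many animals or culture passages stand behind a library. Values are the deposited abundances, a length-normalised level per gene, so levels of different genes can be set side by side. Where values come in pairs, the female library is given first.

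IGF1 and IGF2 are secreted peptides that act on neighbouring cells through IGF1R, a receptor tyrosine kinase that drives growth and survival. IGF2R, the mannose 6-phosphate receptor, has no kinase and takes IGF2 to the lysosome. The binding proteins hold the ligands outside the cell and either keep them from the receptor or deliver them, and proteases release the ligand by cutting them. In hair follicles, IGF1 is best known as a signal from the dermal papilla to the epithelium that prolongs anagen.

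The depth of the libraries is unknown, and their deposited totals ran from 844960 to 1186966. Between 12040 and 12458 genes reached a value of 1, and the mitochondrial genome gave 12.4% and 11.2% of the summed level in April and 16.6% and 14.2% in October. The keratinocyte identity of the cultures was checked with 6 basal keratinocyte markers, whose summed level was 39050 and 43800 in April and 19030 and 20130 in October. KRT5 and KRT14 made up at least 88.7% of that sum in each library, and TP63, ITGA6 and COL17A1 overlapped between the phases. Of 8 bulge stem cell markers, 7 were higher in both mid than in both early libraries, among them CD34, which stayed under 1 everywhere, against 31.5% of all tested genes. The dermal papilla and fibroblast list of 18 genes summed to 40.7 and 26.7 early and to 248.6 and 96.2 mid. In it 15 genes were higher in both mid than in both early libraries, against 31.5% of all tested genes. These 15 include genes too low to be tested. Of the 12 tested genes of the list, all but THY1 reached a value of 1 in the mid libraries alone, which fixed their direction. In the list 5 of the 18 were under 1 in every library, and DCN, FAP and CRABP1 were at 0 in at least 1 library. The endothelial list summed to at most 0.915, with CDH5 at 0 throughout. The immune list summed to 7.60 and 6.63 in April and 17.4 and 11.5 in October. In it PTPRC, the pan-leukocyte marker, was at 0 in all 4 libraries, and CD14 was at 3.29 and 2.49 in April and 12.6 and 8.52 in October. CD68, CSF1R and CD3E overlapped between the phases, with CD68 at 3.90 and 3.56 in April and 4.41 and 2.40 in October. The adipocyte and sebocyte list summed to between 506.1 and 787.9, nearly all of it SCD, a fatty acid desaturase. In these bulk samples, fewer cells of a type and less RNA per cell cannot be told apart.

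Little mRNA of either ligand was measured. In April IGF1 was at 0.372 in the female and 0.338 in the male, and in October at 0.419 and 0.231. The mid libraries lay on either side of the early ones, and IGF1 stayed below the minimum value of 1 needed for testing. IGF2 was at 0.261 and 0.0401 in April and at 1.14 and 1.24 in October. Both mid libraries were above both early ones. The filter keeps genes that reach 1 in 2 or more libraries. IGF2 met it through the mid libraries alone, which fixed its direction. Its log2 difference, mid minus early on the log2(value + 1) scale used for all tests, was 0.94 (SE 0.24, n = 2 per phase, limma adjusted p = 0.0926), and 2.52 with a pseudocount of 0.1. Even at mid anagen the summed level of the ligands was 1.56 in the female and 1.47 in the male library, against 52.8 and 44.5 for IGF1R. INS, the insulin gene that neighbours IGF2 in the RefSeq order of the ARS1.2 assembly, was at 0 in every library.

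Both receptors were abundant enough to test and had higher values at mid anagen. After rescaling to a common total their log2 differences were 0.88 for IGF1R and 0.85 for IGF2R, against a median of 0.32 over all tested genes. IGF1R was at 37.0 in the female and 29.1 in the male in April, and at 52.8 and 44.5 in October. The phases did not overlap, and the mid mean was 1.47 times the early mean. The log2 difference was 0.55 (SE 0.18, 95% interval 0.09 to 1.01) and did not pass (limma adjusted p = 0.138). It was 0.24 once a trend of the differences with gene span was removed. IGF2R was at 16.3 and 14.1 in April and at 21.1 and 23.5 in October. Its mid mean was also 1.47 times the early mean, with a log2 difference of 0.53 (SE 0.15, 95% interval 0.14 to 0.91, limma adjusted p = 0.113). With the span trend removed the IGF2R difference was 0.36. The level of IGF1R was 2.27 and 2.07 times that of IGF2R in April and 2.51 and 1.90 times in October. The ratio of the receptors therefore overlapped between phases, while the level of each did not. INSR, the insulin receptor, which pairs with IGF1R in hybrid receptors, was lower than both, at 5.74 and 4.88 early and 7.25 and 9.41 mid (log2 difference 0.56, SE 0.19, limma adjusted p = 0.139). Its difference was 0.34 with the span trend removed.

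**Figure D1:**
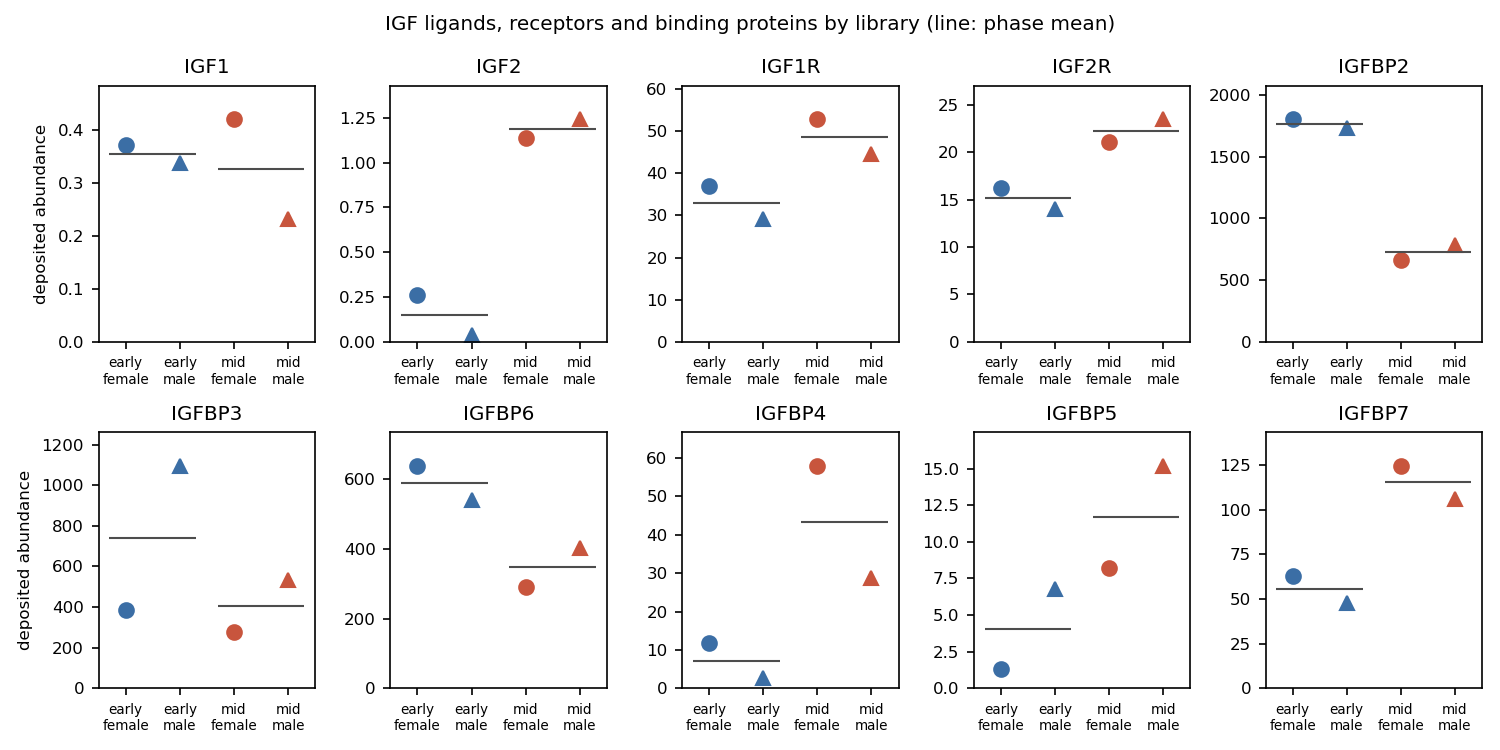
Deposited abundance of each gene (vertical axis, linear from 0, scaled per gene) in the 4 libraries, with females as circles, males as triangles, early anagen in blue and mid anagen in red, and a line at each phase mean. Both mid libraries lie below both early ones for IGFBP2 and IGFBP6 and above them for IGF2, IGF1R, IGF2R, IGFBP4, IGFBP5 and IGFBP7, while IGF1 and IGFBP3 overlap.

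The 6 binding proteins differed in direction, and 4 of them were more abundant than either receptor in both phases. IGFBP2, IGFBP3 and IGFBP6 held the 3 highest mean levels of the 10 genes in both phases, and their mean levels were lower at mid anagen. IGFBP4, IGFBP5 and IGFBP7 had lower levels than these and were higher in both mid libraries. These directions held for all 6 after rescaling to a common total, where the log2 differences were smallest in size for IGFBP3 (-0.42) and IGFBP6 (-0.43).

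IGFBP2, which binds IGF2 with some preference over IGF1, had the highest level. April values were 1802 in the female and 1730 in the male, and October values were 664.1 and 785.8. The early libraries lay close together and both were above both mid libraries. The early mean was 2.44 times the mid mean, and the log2 difference was -1.29 (SE 0.24, 95% interval -1.88 to -0.69, limma adjusted p = 0.0726). Among the 10 genes it had the smallest unadjusted p, 0.00217, which ranked 373 of the 12486 tested genes. IGFBP6, which binds IGF2 far more tightly than IGF1, was at 637.4 and 538.4 in April and at 289.2 and 403.4 in October. The phases did not overlap, and the log2 difference was -0.78 (SE 0.25, 95% interval -1.39 to -0.16, limma adjusted p = 0.126). The female pair differed by -1.14 and the male pair by -0.42.

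IGFBP3, the main carrier of IGFs in the circulation, varied more between the libraries of a phase than between the phases. Its level was 387.9 in the female and 1095 in the male in April, against 278.3 and 532.8 in October. The early female value lay between the mid values. The log2 difference of -0.76 had an SE of 0.56 and a 95% interval of -2.17 to 0.66 (limma adjusted p = 0.417). It was -0.01 without the early male, -1.50 without the early female, -0.29 without the mid female and -1.22 without the mid male library. Each of these fits sets 1 sex in a phase against both sexes in the other. Within the sexes, the female pair differed by -0.48 and the male pair by -1.04. IGFBP3 and IGFBP6 overlapped in level in each phase, so their order among the members was not settled.

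IGFBP4, an inhibitory binding protein whose best-known protease is PAPPA, had the largest difference of the 9 tested members on the log2(value + 1) scale. April levels were 11.7 in the female and 2.72 in the male, and October levels were 58.0 and 28.7. Both mid libraries were above both early ones, and the female library was the higher one in each phase. The mid mean was about 6 times the early mean. The log2 difference was 2.60 (SE 0.63, 95% interval 1.03 to 4.18) and did not pass (limma adjusted p = 0.0861). It was 1.72 without the early male and 3.49 without the early female library, and it passed after rescaling to a common total (adjusted p = 0.0497). Within the sexes, the female pair differed by 2.21 and the male pair by 3.00. In early anagen IGFBP4 overlapped IGFBP5 in level and lay below IGF2R, and at mid anagen it was above IGF2R and overlapped IGF1R.

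IGFBP5, a binding protein that attaches to extracellular matrix, was at 1.35 and 6.81 in April and at 8.24 and 15.2 in October. The phases did not overlap, yet the early male lay close to the mid female library. The log2 difference was 1.51 (SE 0.60, 95% interval 0.02 to 3.01, limma adjusted p = 0.176). It was 0.65 without the early female and 2.38 without the early male library. Within the sexes, the female pair differed by 1.98 and the male pair by 1.05. IGFBP7, a secreted relative that binds IGFs only weakly, was at 62.9 and 47.8 in April and at 124.5 and 106.1 in October. The mid mean was 2.08 times the early mean, and the difference was similar in the female pair (0.97) and the male pair (1.13). The log2 difference of 1.05 (SE 0.20, 95% interval 0.56 to 1.55) did not pass over all genes (limma adjusted p = 0.0741), but did after rescaling (adjusted p = 0.0427).

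**Figure D2:**
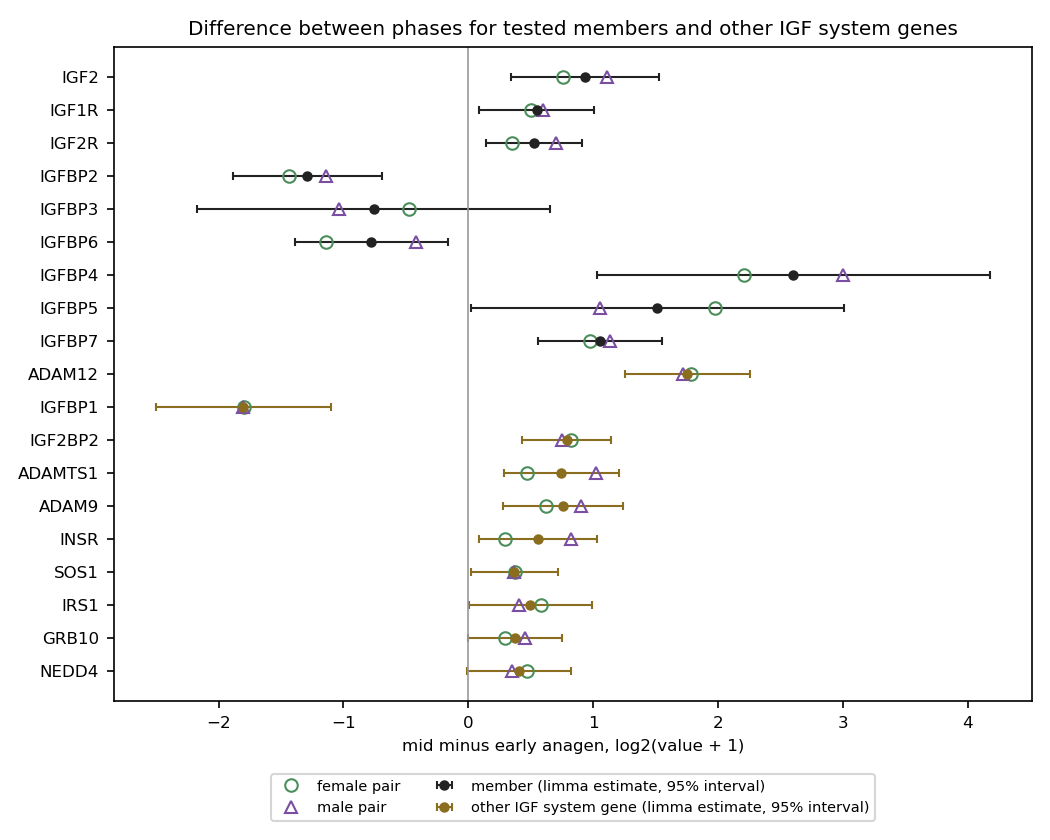
Difference between mid and early anagen on the log2(value + 1) scale (horizontal axis) for the 9 tested members (black) and 10 other IGF system genes (brown), with the limma estimate, its 95% interval and the separate female and male pairs as open symbols. IGFBP4 has the largest difference at 2.60 and IGFBP1 the most negative at -1.80, and the interval of IGFBP3 spans 0.

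Of the 10 members, 9 were tested and limma called 0 higher and 0 lower at an adjusted p threshold of 0.05. Over all 12486 tested genes it called 38, which is 0.304%, with 28 higher (0.224%) and 10 lower (0.0801%). After rescaling to a common total, 565 genes were called higher and 83 lower. At an unadjusted p under 0.05 there were 8 of the 9 members, 6 higher and 2 lower, against 27.9% of all tested genes. With the span trend removed, 5 of the 9 members and 3224 of the 12486 tested genes were under it. The mid libraries were above both early ones for 6 of the 9 members and below both for 2, against 31.5% and 30.9% of all tested genes, so 62.3% did not overlap in either direction. The median log2 difference was 0.55 over the 9 members and 0.01 over all tested genes. IGF2 is counted in each of these, although the filter fixed its direction.

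The summed level of the 6 binding proteins was lower at mid anagen, and its make-up differed. The sum was 2903 and 3421 in April and 1422 and 1872 in October. The early mean was 1.92 times the mid mean, and 1.5 times when each library was divided by its own total. An exact two-sided permutation test of the sum gave p = 0.333, the smallest p that 2 libraries against 2 can give. IGFBP2 alone made up 62.1% and 50.6% of the sum in April and 46.7% and 42.0% in October. IGFBP4, IGFBP5 and IGFBP7 together made up 2.62% and 1.68% of the sum in April. In October they made up 13.4% and 8.01%. IGFBP7 was the greatest part of this, with 8.76% and 5.67% of the sum. The shares of IGFBP3 and IGFBP6 overlapped between the phases. Set against IGF1R, the summed level of the binding proteins was 78.5 and 117.4 times that of the receptor in April and 26.9 and 42.0 times in October. These ratios compare mRNA levels and not protein.

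**Figure D3:**
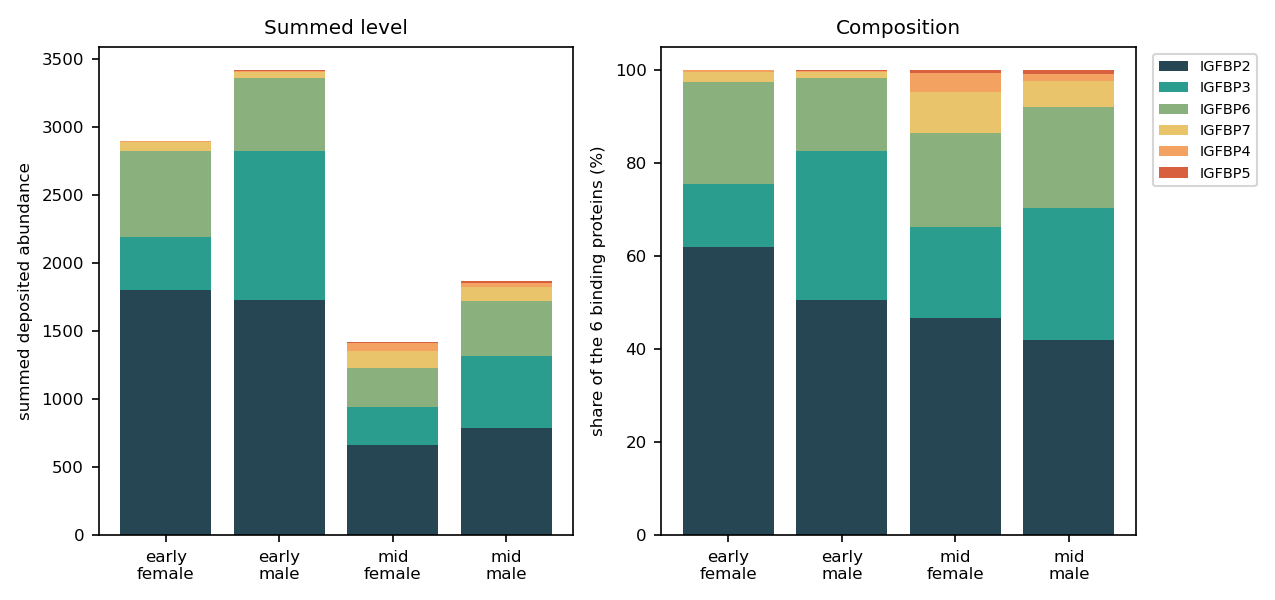
Summed deposited abundance of the 6 binding proteins (left, bars from 0) and each one's percentage of that sum (right) in the 4 libraries. The sum is 2903 and 3421 in the early and 1422 and 1872 in the mid libraries, and the top 3 segments on the right, IGFBP7, IGFBP4 and IGFBP5, widen from 2.62% and 1.68% to 13.4% and 8.01%.

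Male and female libraries had different levels of 3 binding proteins within both phases, though no difference passed the test. IGFBP3 was 2.82 times as high in the male as in the female library at early anagen and 1.91 times at mid anagen. IGFBP5 was 5.04 and 1.84 times as high in the male. IGFBP4 ran the other way and was 4.32 times as high in the female at early and 2.02 times at mid anagen. In a fit with phase and sex, the male minus female log2 difference was 1.21 for IGFBP3 (SE 0.27, limma adjusted p = 0.162), 1.27 for IGFBP5 (SE 0.24, adjusted p = 0.121) and -1.38 for IGFBP4 (SE 0.21, adjusted p = 0.0766). None of the 9 tested members passed, against 0.144% of all tested genes (18 genes), and 3 had an unadjusted p under 0.05, against 11% of all tested genes. After rescaling to a common total, 396 of the 12486 tested genes passed. These 3 binding proteins were among them, with a limma adjusted p of 5.66e-05, 0.000177 and 7.88e-06 in the order given. Their differences hardly changed, at 1.21, 1.26 and -1.36, so the smaller p-values did not come from larger differences. With no replicate within a sex and phase, these p-values lean on spread pooled over genes and are no measure of variation between animals. For the other 6 tested members the difference between the sexes lay between -0.31 for IGFBP7 and 0.12 for IGFBP6. With 1 library per sex and phase, a difference between sexes cannot be told apart from one between single animals or cultures.

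**Figure D4:**
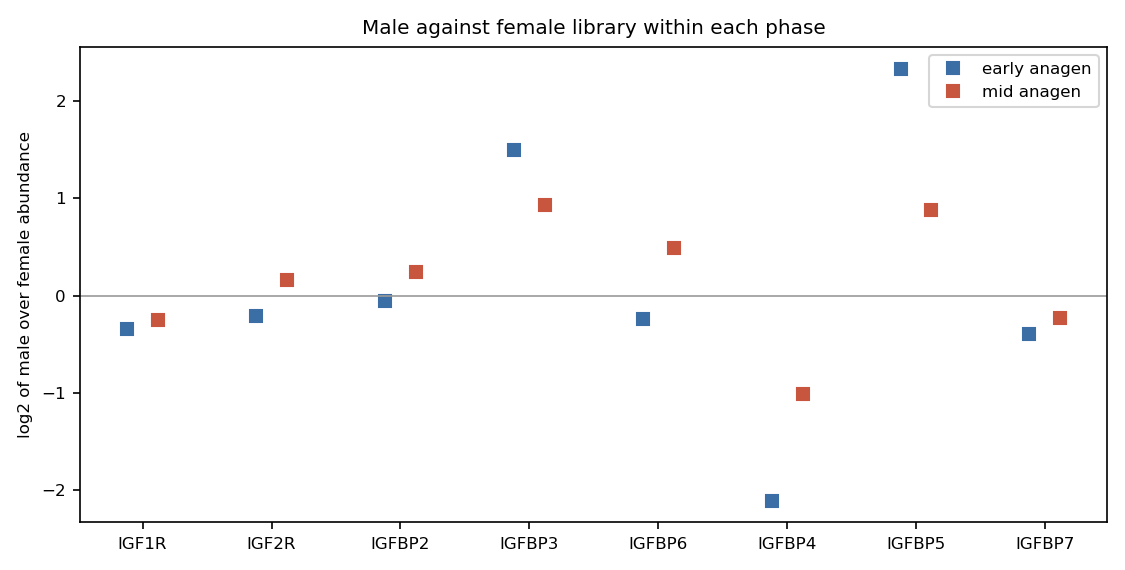
Male over female abundance on the log2 scale (vertical axis) for 8 members, with early anagen in blue and mid anagen in red, 1 library per sex and phase. IGFBP3 and IGFBP5 are above 0 and IGFBP4 is below 0 in both phases, whereas IGF2R, IGFBP2 and IGFBP6 change sign.

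Marker lists of other cell types differed along with some of these genes. The summed fibroblast list was far higher in October, at 248.6 and 96.2, than in April, at 40.7 and 26.7. In April most of that sum was THY1, at 39.4 and 23.0. Without THY1, left out after its values were seen, the sum was 1.27 in the female and 3.69 in the male in April and 232.2 and 67.4 in October. IGFBP4, IGFBP7 and IGF1R were higher in the female of each phase, whereas this sum was higher in the male in April and in the female in October. DCN, a fibroblast matrix proteoglycan and among the lowest genes of the list in April, was at 0 and 0.0774 in the April libraries. At mid anagen DCN was at 21.0 in the female and 3.38 in the male library. IGFBP5 was instead higher in the male of each phase. The smooth muscle and pericyte list summed to 195.2 and 458.3 early and 237.3 and 535.6 mid, and most of it was TAGLN, an actin-binding protein. TAGLN was at 119.5 and 395.7 early and 165.4 and 431.9 mid, also higher in the male. Without TAGLN the sum was 75.7 and 62.6 in April and 71.9 and 103.8 in October. MYH11 and RGS5 were lower in the male of each phase, and DES and RGS5 stayed under 1 in every library. The basal keratinocyte sum, carried by KRT5 and KRT14, was lower at mid anagen, as IGFBP2 and IGFBP6 were. Without these keratins it was 2569 and 2195 in April and 2148 and 1944 in October. Other lists were also higher in both mid libraries, among them the immune list. The bulge stem cell list summed to 144.1 and 111.6 in April and 242.9 and 258.2 in October. The Schwann list summed to 31.3 and 25.6 in April and 55.2 and 61.3 in October, with 4 of its 6 genes under 1 in every library. The melanocyte sum overlapped between the phases. The part of any of these cell types in the differences was not tested.

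**Figure D5:**
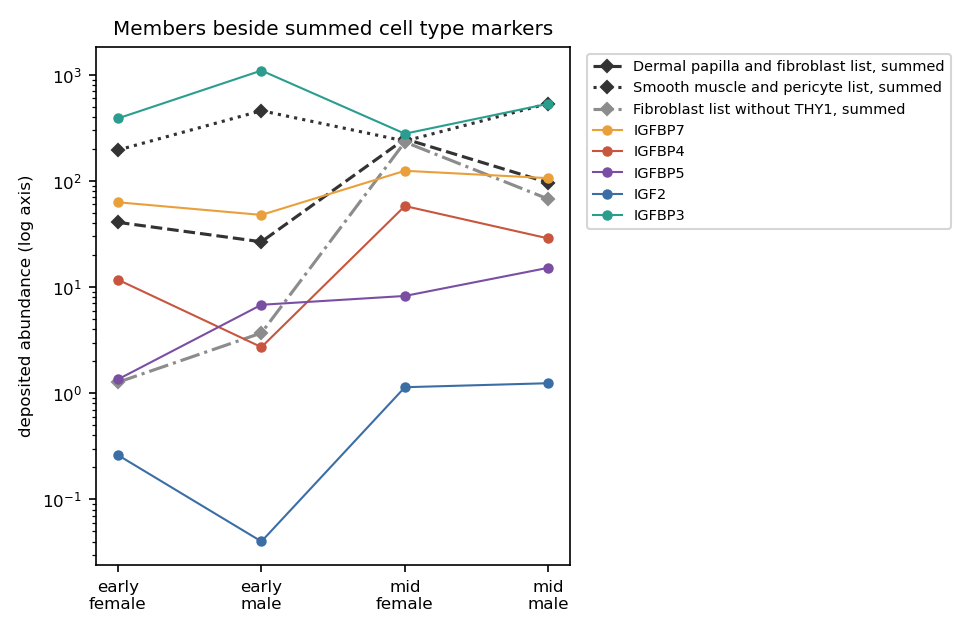
Deposited abundance (vertical log axis) of 5 members and the summed fibroblast list (with and without THY1) and smooth muscle list in the 4 libraries; lines join the values of a gene or list and mark no order in time. IGFBP4 and IGFBP7 are higher in the female of each phase and IGFBP3 and IGFBP5 in the male, while the fibroblast sum without THY1 is higher in the male in April and in the female in October.

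The rest of the IGF system was read from a list of 44 genes for insulin and growth hormone receptors, adaptors, proteases, mRNA-binding proteins and IGF2R partners. Of these 43 were in the table, STAT5A was not found by its symbol, and 31 were tested. None passed in limma, 8 had an unadjusted p under 0.05 (7 higher and 1 lower), against 27.9% of all tested genes, and the median log2 difference was 0.28. In the list 16 genes were above both early libraries at mid anagen and 4 were below, against 31.5% and 30.9% of all tested genes. With both directions pooled, the shares without overlap and with a small p were near those of all genes. By direction the list leaned to higher values at mid anagen. With the span trend removed the median log2 difference of the list was 0.13, against 0.02 over all tested genes. Of all tested genes, 13.2% had a small p and were higher, and 14.7% had one and were lower. Of the 16, ADAM12 and SH2B2 met the filter through the mid libraries alone. After rescaling to a common total ADAM12, ADAM9 and IGF2BP2 were called higher and IGFBP1 lower, against 565 higher and 83 lower over all 12486 tested genes. With 1 library left out, the log2 difference of ADAM12 ran from 1.66 to 1.84 and that of IGFBP1 from -2.09 to -1.51.

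The binding protein of this list, IGFBP1, was lower at mid anagen, as IGFBP2 was. IGFBP1 was at 19.2 and 29.3 in April and at 4.84 and 7.66 in October. Both early libraries were the higher ones, with a log2 difference of -1.80 (SE 0.28, limma adjusted p = 0.0700). Binding protein genes lie side by side in pairs in the goat genome, IGFBP2 next to IGFBP5 and IGFBP1 next to IGFBP3, in the RefSeq order. The IGFBP2 and IGFBP5 pair differed in opposite directions (-1.29 and 1.51), and IGFBP1 and IGFBP3 had differences of the same sign (-1.80 and -0.76). TOP2A, a topoisomerase of dividing cells that neighbours IGFBP4, was at 87.4 and 90.4 early and 55.1 and 81.0 mid (log2 difference -0.41, limma adjusted p = 0.28), against 2.60 for IGFBP4. ADGRL3, an adhesion receptor next to IGFBP7, was at 1.38 and 0.647 early and 7.60 and 7.04 mid (log2 difference 2.07, limma adjusted p = 0.0551). The neighbours on the other side, TNS4 for IGFBP4 and POLR2B for IGFBP7, overlapped between the phases (log2 differences -0.03 and 0.05). These neighbours lie outside the rule for named genes.

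Among proteases that can cut binding proteins, ADAM12 had the smallest p of the list. It met the filter through the mid libraries alone, which fixed its direction. ADAM12 was at 0.536 and 0.418 in April and at 4.30 and 3.67 in October (log2 difference 1.75, SE 0.20, limma adjusted p = 0.0551). ADAM9 was at 44.1 and 32.7 early and 68.2 and 62.0 mid (log2 difference 0.76, adjusted p = 0.0916). ADAMTS1 was at 7.84 and 6.43 early and 11.2 and 14.1 mid (log2 difference 0.75, adjusted p = 0.0897). PAPPA stayed at or under 0.217 and PAPPA2 was at 0 in all libraries. PAPPA, PAPPA2 and HTRA1 lie outside the rule for named genes and were added after their values were seen. HTRA1, a secreted serine protease, was the most abundant of these, at 584.5 and 470.6 early and 753.5 and 725.3 mid (log2 difference 0.49, adjusted p = 0.21).

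Of the proteins that act inside the cell, IGF2BP2, which binds IGF2 mRNA and many others, was at 57.1 and 59.0 in April and at 102 and 100.2 in October. The libraries of each phase nearly coincided, with a log2 difference of 0.79 (SE 0.14, limma adjusted p = 0.0726). The adaptor IRS1 was at 2.44 and 3.31 early and 4.15 and 4.72 mid (log2 difference 0.50, adjusted p = 0.178). The RAS exchange factor SOS1 was at 10.2 and 10.7 early and 13.6 and 14.0 mid (log2 difference 0.37, adjusted p = 0.164). GRB10, an adaptor that restrains IGF1R and INSR, was at 16.5 and 14.1 early and 20.5 and 19.7 mid (log2 difference 0.37, adjusted p = 0.182). NEDD4, a ubiquitin ligase that acts with GRB10, was at 33.3 and 29.7 early and 46.4 and 38.0 mid (log2 difference 0.41, adjusted p = 0.187). With the span trend removed the differences were 0.17 for SOS1, 0.13 for GRB10 and 0.19 for NEDD4.

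The genes whose profile over the 4 libraries was nearest to that of IGF1R were MARCH7, B3GNT5 and MFSD8. Their distances, computed on log2 values centred on each gene's mean, were 0.0278, 0.0346 and 0.0357. As many as 614 genes with a symbol lay within 0.25 of IGF1R, so its profile was a common one. For IGFBP2, the member with the highest mean, they were LRR1, KIAA0101 and HJURP, at 0.116, 0.135 and 0.164, and 13 genes lay within 0.25. KIAA0101, the PCNA clamp associated factor, was at 76.0 and 75.9 in April and 25.8 and 30.0 in October and was called lower (log2 difference -1.42, SE 0.15, limma adjusted p = 0.0468), whereas IGFBP2 was not called.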

How the data were processed

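The deposited signal is a length-normalised abundance per gene that the authors rescaled between libraries. This description rests on the values, which behave like TPM but sum to 844960 to 1186966. The submitters' processing notes list kallisto 0.46.1 and sleuth 0.30.0. For the build, the annotation and the summing of transcripts, nothing is given in the sources used here. Ratios of values under 0.6 were inspected for steps of whole reads. At most 13.4% of ratios fell in a log2 bin of 0.05 for the early pair and at most 3.34% for pairs with the mid male, so depth stays unknown and no counting interval is given.

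The fits used limma 3.58.1 (R 4.3.3) with an intensity trend on log2(value + 1), a scale that understates differences of low genes. The 12486 genes at 1 or more in at least 2 libraries were tested, with phase as the only term, and with phase and sex for the sex comparison. P-values were Benjamini-Hochberg adjusted over all tested genes, with a threshold of 0.05. The test was checked on simulated data. In the phase fit, p-values rest on the spread between the female and male library of each phase, which the labels call biological replicates. That spread therefore includes any difference between the sexes. The fit with phase and sex has no replicate within a sex and phase. Its p-values rest on how far the male minus female difference varied between the phases. In both fits limma also draws on the spread of the other genes. Named genes are the 10 members, the 10 genes of the IGF system list with the smallest p, and the 3 nearest profiles of IGF1R and of the most abundant member. Members, lists and rules were chosen with earlier results of these data known. Of the gene identifiers 20294 matched the RefSeq table of ARS1.2, including all 10 members, which was used only for spans and neighbours. Alternatives were other pseudocounts, filters and scalings, no intensity trend, removal of a gene span trend, each library left out and a replicate block.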

Additional observations from a re-analysis of the deposited data

Results flagged for a closer look

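These differences in direction rest on 1 library each and were not tested. The mid minus early difference of IGF1 on the log2(value + 1) scale was 0.049 for the females and -0.12 for the males, at levels under 1 throughout. Among all tested genes 23.5% differed in direction between the pairs. For 4 members the male minus female difference had opposite signs in the phases, which 42.2% of all tested genes did. IGF2 differed by -0.28 at early and 0.07 at mid anagen, and IGF2R by -0.20 and 0.15. IGFBP2 differed by -0.058 and 0.24, and IGFBP6 by -0.24 and 0.48.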

How the results depend on the processing

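None of the 9 tested members and 10 named IGF system genes changed direction under any alternative run, though most runs could not change it. The filter, intensity trend and block runs leave each difference as it was. Leaving out 1 library or changing the pseudocount cannot reverse a gene whose phases do not overlap. For all but IGFBP3, only rescaling or removal of the span trend could have done so. The count of genes called between phases, 38, was 18 with a pseudocount of 0.1, 0 with no filter (3843 at an unadjusted p under 0.05), 648 after rescaling to a common total and 1782 with the replicate block. It was 0 without the early female, 0 without the early male, 733 without the mid female and 370 without the mid male library, so it ran from 0 to 733. In these fits the lone library of a phase is assumed to vary like the other phase. The members called, 0, became 2 after rescaling (IGFBP4 and IGFBP7) and 5 with the replicate block (IGF2, IGFBP2, IGFBP4, IGFBP5 and IGFBP7, with adjusted p from 0.00487 for IGFBP4 to 0.0457 for IGFBP2), and were 0 without any 1 library. Rescaling moved the median log2 difference of all tested genes from 0.01 to 0.32 and that of the members from 0.55 to 0.88. With the span trend removed the members' median was 0.36 and IGF1R was at 0.24. The IGF system genes called, 0, became 4 after rescaling, 1 without the intensity trend (ADAM12) and 5 with the replicate block, and ran from 0 to 2 with 1 library left out (IGFBP1 and ADAM12 when either mid library was left out). For sex, the 18 genes called became 46 and 48 with pseudocounts of 0.1 and 5, 0 with no filter (1504 at an unadjusted p under 0.05), 101 with a filter of 5, 396 after rescaling, 9 without the intensity trend and 9 with the span trend removed. The members called by sex, 0, became 1 with a pseudocount of 5 and 1 with a filter of 5 (IGFBP4 in both), and 3 after rescaling. The cause of these changes was not tested.

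Replicate 1 is the female and replicate 2 the male of each phase, and nothing in the labels pairs the libraries. Female minus male deviations of the early and mid libraries had a correlation of 0.2916 across 12486 genes, from 2 pairs only, so the replicate block is given here alone. The unknown depth limits IGF1 and IGF2 most, whose early values lay under 0.4.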
